A study of Canis lupus familiaris with 30 samples.

Results

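The genes described here are the folding and stress genes of the endoplasmic reticulum (ER), chosen by symbol from a list of 35 genes. Of these, 34 had a row in the count table of 30424 genes, and all 34 were among the 18711 genes that passed a filter on low counts (10 or more counts in 5 or more tumors). *CREB3L2*, which codes for an ER-membrane transcription factor, had no row and is not analysed here. The material was 30 canine thyroid tumors, labelled as tumor tissue of the thyroid gland with no histologic class, treatment or time, so the labels make 1 group and no comparison between tumor classes was made. Ribosomal-depleted total RNA was sequenced, and each tumor was 1 library from bulk tissue, which also holds stroma and immune cells.

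Secreted and membrane proteins fold in the ER, where chaperones hold the chain, lectins read its sugars and isomerases form its disulfide bonds. When unfolded protein accumulates, the sensors encoded by *ATF6*, *ERN1* (IRE1) and *EIF2AK3* (PERK) start the unfolded protein response, which raises chaperone transcripts, splices the *XBP1* transcript and, through *ATF4*, induces *DDIT3* (CHOP). The thyroid follicular cell makes thyroglobulin, the very large glycoprotein on which thyroid hormone is built, and *TG*, which encodes it, was taken here as the measure of secretory cargo.

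Total counts ranged from 12288945 to 45148677, with a median of 25569678, and no pair of tumors held identical values. An unsupervised clustering that left out the ER genes, *TG* and all marker genes placed 25 tumors on a larger branch and 5 (TC1020, TC1473, TC1601, TC1936 and TC2289) on a smaller branch. The summed level of 6 follicular cell markers other than *TG* ran from 7.50 to 18.60 on the larger branch and from 8.84 to 13.42 on the smaller, and that of 5 C cell markers ran from 5.42 to 13.13 and from 17.82 to 19.42. Levels are log2(normalized count + 1) throughout, so a difference of 1 is a doubling. Correlations were computed over the 25 tumors of the larger branch, since tumors on separate branches were not pooled. TC1088 stood apart on the larger branch: it had 12 counts of *TG*, follicular markers at the lowest summed level of the 30 tumors, and the study treated it as an outlier. TC538 had the smallest library. The counts of correlated members are given with and without TC1088.

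The ER genes varied less between tumors than most transcripts. The median standard deviation (SD) of a member over the 30 tumors was 0.77, against 0.95 for all genes that passed the filter, and 6 of the 34 members lay above the all-gene median. The comparison took in all genes that passed the filter, also those with few counts, and was not matched for abundance. Without TC1088 and TC538 the members' median SD was 0.69. Together the members took between 0.353% and 1.42% of a tumor's counts, with a median of 0.889%. *TG* by contrast had the widest range: 3.70 in TC1088, a median of 18.31 and 22.65 in TC1869, where it made up 16.7% of all counts. The 4 tumors with the lowest *TG* after TC1088 were all on the smaller branch.

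**Figure D1:**
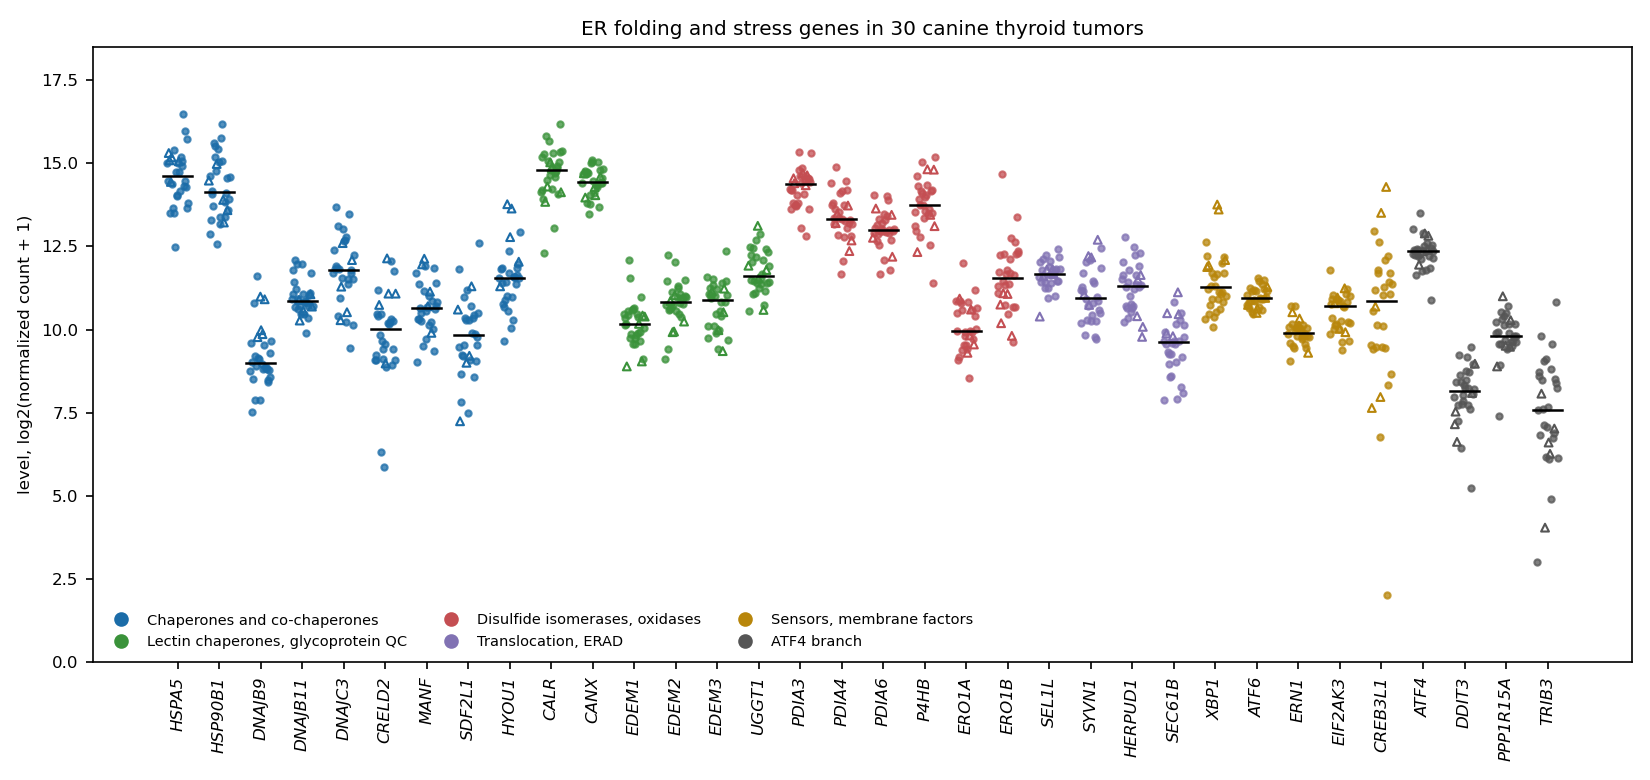
Level, log2(normalized count + 1), of each ER gene (horizontal axis, colored by role) in 30 tumors. Dots are the 25 tumors of the larger branch, open triangles the 5 of the smaller branch and bars the median over 30 tumors. *ATF6* spans 10.48 to 11.54, whereas *CREB3L1* spans 2.00 to 14.29. Heights are not comparable between genes, because counts were not divided by transcript length.

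Among the chaperones, *HSPA5* (BiP), the main HSP70 chaperone of the ER, ranged from 12.47 in TC1088 through a median of 14.61 to 16.47 in TC627. TC1088 lay more than 1 log2 unit below the next tumor, TC640 at 13.50, and TC1869 was second highest at 15.96. *HSP90B1* (GRP94), the HSP90 of the ER, ran from 12.58 in TC2011 through 14.14 to 16.18 in TC627. Thus TC627 was the highest tumor for both major chaperones, but the lowest tumor differed. *DNAJB11*, a J-domain partner of BiP, spanned only 9.90 in TC1088 to 12.08 in TC67 around a median of 10.87. *CRELD2*, an ER protein with isomerase-like motifs that stress induces, had the third largest SD of the members, 1.38. Its level was 5.87 in TC538 (16 counts) and 6.33 in TC1088, against a median of 10.01 and a maximum of 12.14 in TC1601. The next lowest tumor was TC1953 at 8.87, so these 2 libraries stood apart, and the SD of *CRELD2* without them was 0.97. *SDF2L1*, a component of BiP complexes, ran from 7.24 in TC1473 through 9.82 to 12.61 in TC627. *HYOU1*, which exchanges nucleotide on BiP, was highest in 2 tumors of the smaller branch, TC1601 at 13.77 and TC1936 at 13.64, with a median of 11.57 and a low of 9.65 in TC538. *MANF*, a secreted stress-induced protein, was likewise highest in TC1601 at 12.13 and TC1936 at 11.96, with 10.65 as its median and 9.02 in TC1088 as its lowest. The co-chaperones *DNAJB9* and *DNAJC3* had medians of 8.99 and 11.80. *DNAJB9* was highest in TC538 at 11.61 and lowest in TC2011 at 7.53, and *DNAJC3* was highest in TC627 at 13.69 and lowest in TC1979 at 9.43.

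Of the lectins and glycoprotein quality-control genes, *CALR* (calreticulin) ran from 12.29 in TC538 through 14.79 to 16.18 in TC1869. *CANX* (calnexin), its membrane-bound counterpart, was among the steadiest members, with an SD of 0.42 and a range from 13.49 in TC1088 to 15.09 in TC815. The medians of *EDEM1*, *EDEM2* and *EDEM3*, which route misfolded glycoproteins to degradation, were 10.16, 10.83 and 10.89. Their extremes lay in different tumors: *EDEM1* was highest in TC812 at 12.09 and lowest in TC1020 at 8.89, *EDEM2* was highest in TC1744 at 12.24, and *EDEM3* was highest in TC538 at 12.35. *UGGT1*, which returns unfolded glycoproteins to the lectins, spanned 10.57 to 13.12, the latter in TC1473.

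The disulfide isomerases *PDIA3*, *PDIA4*, *PDIA6* and *P4HB* had medians of 14.37, 13.33, 12.99 and 13.74. *PDIA3*, which works with the lectin chaperones, was lowest in TC1088 at 12.81 and highest in TC627 at 15.33, the tumors that also bounded *HSPA5*. *PDIA4* and *P4HB* were lowest in TC538, at 11.67 and 11.41, and highest in TC1869, at 14.90 and 15.19. Of the oxidases that recharge the isomerases, *ERO1A* ran from 8.53 in TC1979 through 9.96 to 11.99 in TC538. *ERO1B*, the form found mainly in secretory cells, ran from 9.63 in TC1088 through 11.54 to 14.69 in TC538. The second highest *ERO1B* level was 13.39 in TC2288, so TC538 stood above the rest for this gene, whereas it was the lowest tumor for *CALR*, *PDIA4*, *P4HB* and *CRELD2*.

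In the translocation and degradation group, *SEL1L*, the adaptor of the ubiquitin ligase encoded by *SYVN1*, had an SD of 0.41, the third smallest of the members. It was 10.39 in TC2289, 11.67 at the median and 12.42 in TC627. *SYVN1* itself ran from 9.72 in TC1088 through 10.96 to 12.70 in TC1601. *HERPUD1*, a stress-induced member of the same complex, spanned 9.78 in TC2289 to 12.79 in TC538 around 11.32. *SEC61B*, a subunit of the translocation channel, spanned 7.88 in TC1088 to 11.12 in TC1601 around 9.63.

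Of the 3 stress sensors, *ATF6* and *ERN1* had the smallest SDs of all members. *ATF6* had an SD of 0.30, at the 0.2 percentile of all genes that passed the filter, with 10.48 in TC1088, 10.94 at the median and 11.54 in TC538. *ERN1* had an SD of 0.38, with 9.05 in TC1241, 9.91 at the median and 10.71 in TC2011. *EIF2AK3*, with an SD of 0.57, ran from 9.37 in TC1979 through 10.70 to 11.80 in TC538. These transcript levels do not measure whether the sensor proteins were active, and gene counts do not separate spliced from unspliced *XBP1*. Total *XBP1* ran from 10.08 in TC1979 through 11.27 to 13.76 in TC1936, with TC1601 second at 13.61 and both of these on the smaller branch. The highest level on the larger branch was 12.62, in TC627. *CREB3L1*, an ER-membrane factor related to *ATF6* that drives secretory and collagen genes, had the largest SD, 2.36, with 2.00 in TC1088 (3 counts), 10.86 at the median and 14.29 in TC1936. The second lowest tumor for *CREB3L1* was TC538 at 6.76 and the second highest was TC1601 at 13.51, so the smaller branch held its highest levels but also low ones (7.64 in TC1473). Without TC1088 and TC538 its SD was 1.65.

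In the ATF4 branch, *ATF4* itself varied little, with an SD of 0.48 and levels of 10.88 in TC538, 12.36 at the median and 13.50 in TC1869. *DDIT3*, the pro-apoptotic factor of the branch, ran from 5.24 in TC1088 (37 counts) through 8.15 to 9.46 in TC1869. *PPP1R15A* (GADD34), which reverses the translation block, ran from 7.41 in TC538 through 9.82 to 11.00 in TC1601. *TRIB3*, a pseudokinase induced by *ATF4* and *DDIT3*, had the second largest SD, 1.69, with 3.00 in TC1088 (7 counts), 7.59 at the median and 10.82 in TC1869. TC1869, the tumor with the most *TG*, was thus the highest tumor for *ATF4*, *DDIT3* and *TRIB3*. The next tumors were close for *ATF4* (13.02 in TC22) and *DDIT3* (9.23 in TC1164), whereas *TRIB3* reached 9.82 in TC67.

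Tumor by tumor, TC627 lay above the median for 29 of the 34 members and was the highest tumor for 7. TC1869, TC1994 and TC1936 each lay above the median for 26 members, the last of these with only 4426 counts of *TG*. At the other end, TC1088 lay above the median for 3 members and was the lowest tumor for 12. TC538 was the lowest tumor for 8 members and the highest for 7, so that this small library took both ends of the list. In bulk tissue, fewer cells of a type and less RNA per cell cannot be told apart.

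**Figure D2:**
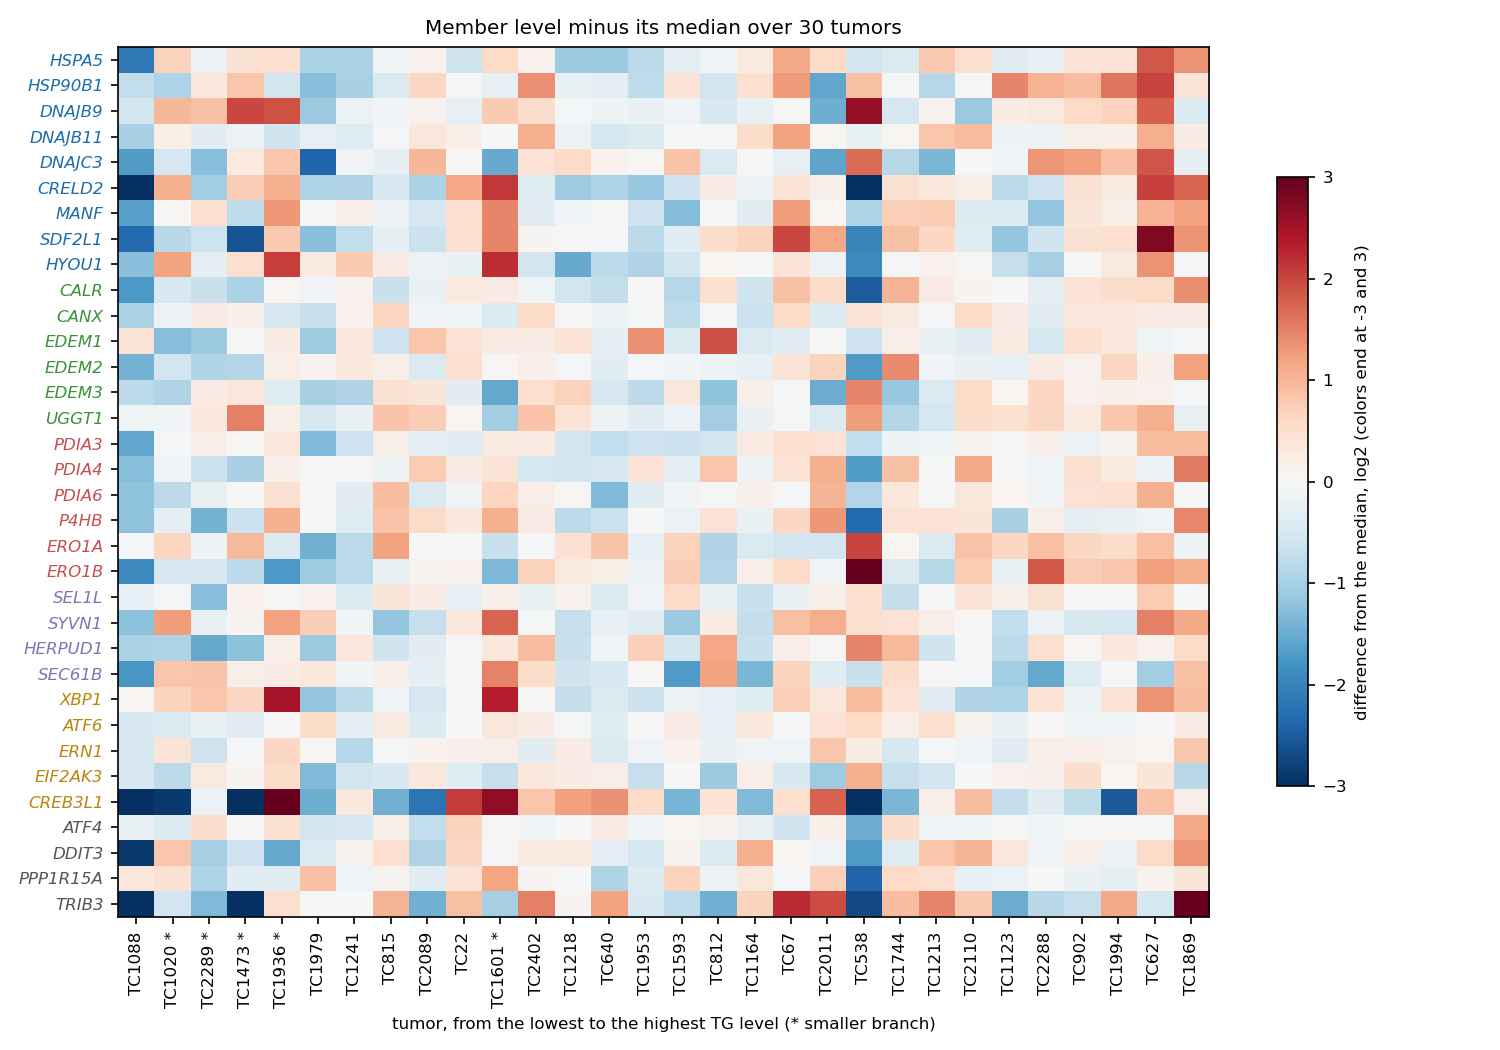
Level of each ER gene (rows, colored by role) minus its median over 30 tumors, in log2 units, for each tumor (columns, ordered from the lowest to the highest *TG* level; an asterisk marks the smaller branch). Red is above and blue below the median, and colors end at 3 log2 units in either direction. TC1088, at the far left, is below the median for 31 of 34 genes, TC538 holds both deep blue and deep red cells, and TC627 and TC1869, at the right, are red for most genes.

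The next question was whether the ER genes followed the amount of thyroglobulin transcript. Each gene that passed the filter was ranked by its Spearman correlation (rho) with *TG* over the 25 tumors of the larger branch, and the members were read against all 18710 genes. With *TG*, 31 of 34 members had a rho above 0, where 50.1% of all genes did, and the median rho was 0.34 for the members and 0.00 for all genes. At an unadjusted p under 0.05 by a two-sided permutation test, 10 members (29.4%) were positively correlated, against 4.2% of all genes, and 0 were negatively correlated, against 4.26%. Without TC1088 the first count was 8, against 3.5% of all genes. After Benjamini-Hochberg adjustment over all genes tested, 0 members and 0.0% of genes passed 0.05. With 100000 resamples the smallest possible p was 1e-05, which limits what the adjustment can call. With 10000000 resamples, a number chosen after the data were seen, still 0 members passed for *TG*, whereas edgeR's quasi-likelihood test of the counts on the *TG* level called 5 (*HSPA5*, *PDIA3*, *CRELD2*, *SDF2L1* and *ERO1B*), together with 784 genes in all (4.19%).

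*HSPA5* was the member closest to *TG* (rho = 0.67, permutation p = 0.00033, adjusted p = 0.202; Pearson's r = 0.71, permutation p = 5e-05), and 18 genes ranked above it. Without TC1088 and TC1979, the tumors farthest from the median *TG* level, r was 0.56 (permutation p = 0.00559). The relation therefore held without them, and over all single tumors left out in turn rho stayed between 0.63 and 0.71. Its adjusted p ranged from 0.00394 (edgeR) to 0.346 (without TC1088) over the alternatives. *ERO1B* followed (rho = 0.61, permutation p = 0.00153, adjusted p = 0.254; r = 0.63, permutation p = 0.00202, and 0.43 without TC1088 and TC1979, permutation p = 0.0416). *CRELD2* had the third highest rho, 0.59 (permutation p = 0.00235, adjusted p = 0.282), and r was 0.59 (permutation p = 0.00605). Without those tumors r fell to 0.35 (permutation p = 0.109), whereas rho was 0.52 (permutation p = 0.0121). Its linear relation with *TG* thus depended on them more than its rank relation did. The other members past the unadjusted threshold were *PDIA3* at rho 0.58, *HSP90B1* at 0.57, *CALR* at 0.53, *SDF2L1* at 0.49, *PDIA6* and *DNAJB11* at 0.46 and *XBP1* at 0.45. They thus included 5 of the 9 chaperones and 3 of the 6 disulfide genes, where 4.2% of all genes passed. The lectin and quality-control genes had 1 of 6 and the sensors and membrane factors 1 of 5. The translocation and degradation genes and the ATF4 branch genes each had 0 of 4, which for so few genes is near the all-gene share. The median rho of these last groups was 0.32 and 0.19, against 0.34 for all members. Whether the roles differed was not tested. Without TC1088, *PDIA6* (rho = 0.39, permutation p = 0.0587) and *DNAJB11* (rho = 0.39, permutation p = 0.0618) did not pass, which left 4 chaperones and 2 disulfide genes, and *DNAJB11* also missed the threshold with TMM scaling (permutation p = 0.0512), over 30 tumors (permutation p = 0.0749) and without TC1088 and TC538 (permutation p = 0.055). The lowest values were -0.11 for *PPP1R15A*, which became 0.04 without TC1088 and TC1979, -0.10 for *EDEM1* and -0.03 for *SEC61B*, whose r was 0.21. These values near 0 had no stable direction.

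Other measures moved with *TG* on this branch. The mean level of the 6 follicular markers without *TG* had rho 0.64 with *TG* (permutation p = 0.00098, adjusted p = 0.0162 over 33 relations). Its r was 0.87 (permutation p = 4e-05), and 0.64 without the 2 tumors farthest from the median *TG* level (permutation p = 0.0011). The share of counts taken by a tumor's 10 most counted genes had rho 0.76 with *TG* (permutation p = 4e-05, adjusted p = 0.00132). Its r was 0.51 (permutation p = 0.0152), and 0.68 without the 2 tumors farthest from the median *TG* level (permutation p = 0.00073). *TG* is itself among the 10 most counted genes in *TG*-rich tumors. The mean level of 7 fibroblast markers had rho 0.40 with *TG* (permutation p = 0.0488, adjusted p = 0.298). Its r was 0.47 (permutation p = 0.0145), and 0.30 without the 2 tumors farthest from the median *TG* level (permutation p = 0.158). Of the 7 markers, 2 were positive at the unadjusted threshold, where 4.2% of all genes were. Among the members the share of the 10 most counted genes was most closely ranked with *ERO1B* (rho = 0.61) and *HSP90B1* (0.48). The part of these measures in the relations with *TG* was not tested.

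**Figure D3:**
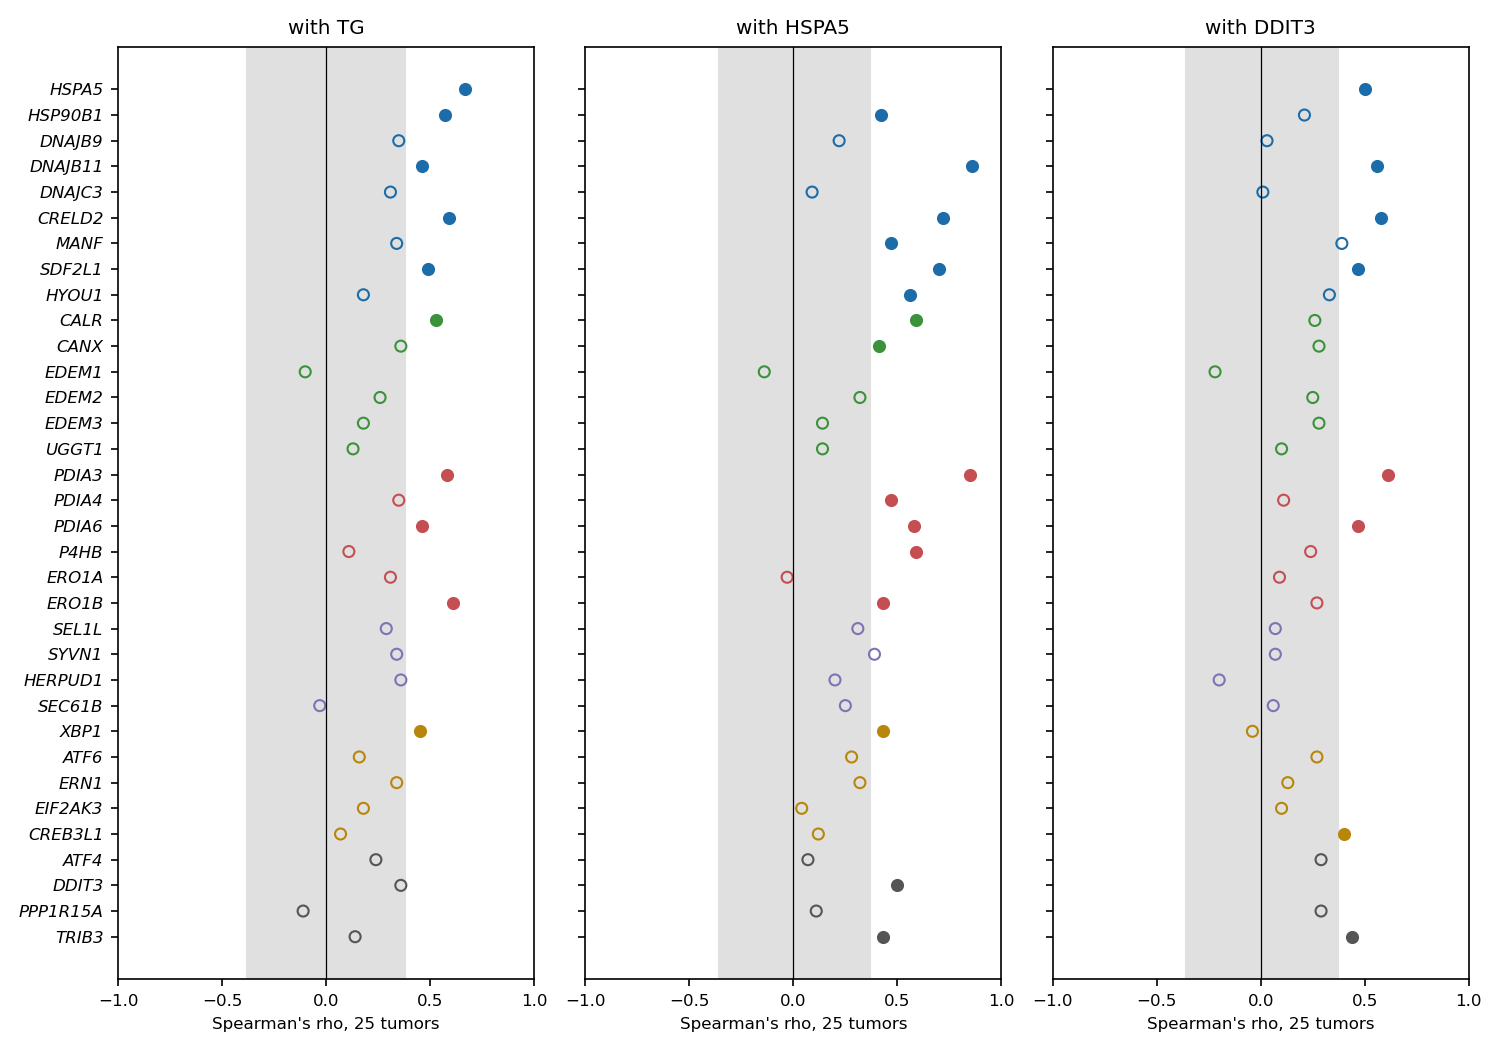
Spearman's rho of each ER gene (rows, colored by role) with *TG*, *HSPA5* and *DDIT3* over 25 tumors. Filled points have an unadjusted permutation p under 0.05, and the grey band leaves out the lowest and the highest 5% of all genes tested (from -0.38 to 0.38 for *TG*). In all 3 panels most points lie right of 0, and *DNAJB11* and *PDIA3* lie farthest right for *HSPA5*.

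Read against BiP itself, the chaperone and isomerase genes stood closer together. Of 33 members, 31 had a rho above 0 with *HSPA5*, where 49.1% of all genes did, and the median rho was 0.39 against -0.01. At an unadjusted p under 0.05, 16 members (48.5%) were positively correlated, against 3.72% of all genes, and 0 were negatively correlated, against 3.3%. Without TC1088 the first count was 10, against 2.66% of all genes. After adjustment over all genes 0 members and 0.0% of genes passed 0.05 with 100000 resamples. With 10000000 resamples 2 genes in all passed, and both were members.

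These were *DNAJB11* and *PDIA3*, the first and the second of all 18710 genes by rho with *HSPA5*. *DNAJB11* had rho 0.86 (permutation p = 1e-05, the smallest that 100000 resamples can give, adjusted p = 0.0935; r = 0.82, permutation p = 1e-05). Without TC1088 and TC627, the tumors farthest from the median *HSPA5* level, r was 0.73 (permutation p = 5e-05). *PDIA3* had rho 0.85 with the same permutation p and adjusted p, and r = 0.88, which became 0.82 without those tumors (permutation p = 1e-05). With 10000000 resamples their adjusted p-values were 0.00374 and 0.00468. Over all alternatives the adjusted p ranged from 0.00161 to 0.143 for *DNAJB11*, which passed 0.05 in 6 of 11, and from 0.000314 to 0.143 for *PDIA3*, which passed in 5 of 11. In the plot of levels, the 25 tumors of the larger branch lay along a line for both genes, and the 5 of the smaller branch had *DNAJB11* levels from 10.27 in TC1936, the second lowest of the 30 tumors, to 11.06 in TC1020.

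**Figure D4:**
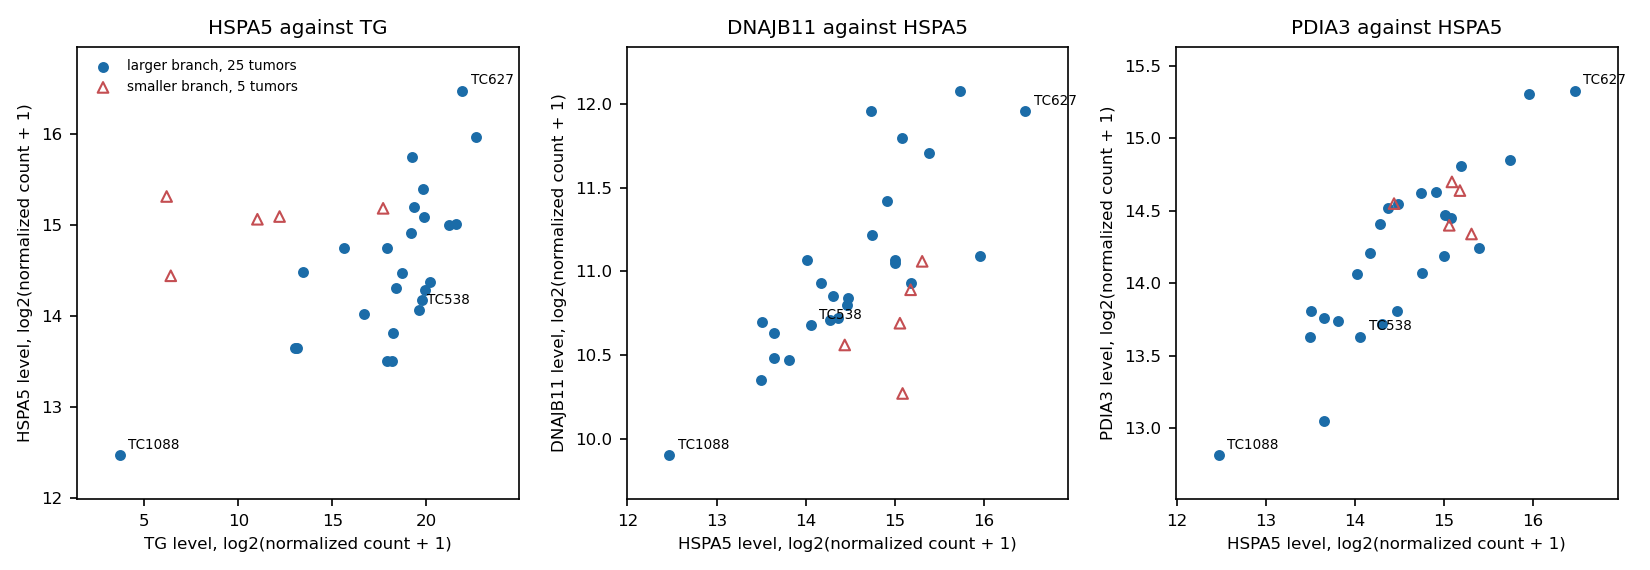
Levels, log2(normalized count + 1), of *HSPA5* against *TG*, *DNAJB11* against *HSPA5* and *PDIA3* against *HSPA5*, 1 point for each tumor. Filled circles are the 25 tumors of the larger branch and open triangles the 5 of the smaller branch. TC1088 is at the lower left of each panel, and 4 of the 5 triangles in the first panel have less *TG* than any circle but TC1088 while their *HSPA5* levels lie among those of the circles.

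*CRELD2* ranked ninth of all genes with *HSPA5* (rho = 0.72, permutation p = 0.00013, adjusted p = 0.203; r = 0.73, permutation p = 2e-05, and 0.56 without TC1088 and TC627, permutation p = 0.00417). *SDF2L1* ranked twelfth at rho 0.70 (adjusted p = 0.242). *CALR* and *P4HB* followed at 0.59, *PDIA6* at 0.58, *HYOU1* at 0.56 and *DDIT3* at 0.50. At the other end were *EDEM1* at rho -0.14, *ERO1A* at -0.03 and *EIF2AK3* at 0.04, of which *ERO1A* changed sign without TC538 and *EIF2AK3* over 30 tumors. *ATF4* had a rho of 0.07 with *HSPA5*. By role, 6 of 8 chaperones and 5 of 6 disulfide genes passed the unadjusted threshold with *HSPA5*, against 2 of 6 lectin and quality-control genes, 0 of 4 translocation and degradation genes, 1 of 5 sensors and membrane factors and 2 of 4 ATF4 branch genes. Without TC1088 these counts were 4 of 8, 3 of 6, 1 of 6, 0 of 4, 1 of 5 and 1 of 4, since *HSP90B1*, *MANF*, *PDIA4*, *ERO1B*, *CANX* and *TRIB3* did not pass. Of all genes 3.72% were positive at that threshold, and 2.66% without TC1088, so 0 of 4 is near that share. Differences between roles were not tested. The mean level of 7 fibroblast markers had rho 0.47 with *HSPA5* (permutation p = 0.0174, adjusted p = 0.144 over 33 relations). Its r was 0.49 (permutation p = 0.0127), and 0.51 without TC1088 and TC627 (permutation p = 0.0125). Where 3.72% of all genes were positive at the unadjusted threshold, 5 of the 7 markers were. Their summed level ran from 11.25 in TC1088 to 16.53 on the larger branch, and *DCN* was at 0 in TC640 and *FAP* in TC1241. The mean level of 6 markers of plasma cells, a cell type rich in ER, had rho -0.26 with *HSPA5* (permutation p = 0.203, adjusted p = 0.479). Its r was -0.22 (permutation p = 0.291), and -0.32 without TC1088 and TC627 (permutation p = 0.134). The part of fibroblasts in the relations with *HSPA5* was not tested.

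For the stress end of the pathway, *DDIT3* was the reference. Of 33 members, 30 had a rho above 0 with *DDIT3*, where 51.0% of all genes did, and the median rho was 0.26 against 0.01. At an unadjusted p under 0.05, 8 members (24.2%) were positively correlated, against 3.8% of all genes, and 0 were negatively correlated, against 3.21%. Without TC1088 the first count was 5, against 3.06% of all genes, and without TC1088 and TC538 it was 3, against 3.84%. After adjustment 0 members and 0.0% of genes passed 0.05. *PDIA3* had the highest rho, 0.61 (permutation p = 0.00157, adjusted p = 0.428; r = 0.69, permutation p = 0.00015, and 0.55 without TC1088 and TC538, permutation p = 0.00724). *CRELD2* followed at rho 0.58 (permutation p = 0.00278, adjusted p = 0.469; r = 0.79, permutation p = 3e-05, and 0.52 without those tumors, permutation p = 0.011). *DNAJB11* came next at 0.56 (permutation p = 0.00432, adjusted p = 0.512; r = 0.59, permutation p = 0.00191, and 0.44 without them, permutation p = 0.0347). Of the ATF4 branch, *TRIB3* had rho 0.44 (permutation p = 0.0289, adjusted p = 0.661), and *ATF4* and *PPP1R15A* had 0.29. For *TRIB3* r was 0.75 (permutation p = 5e-05). Without TC1088 and TC538 its r was 0.45 (permutation p = 0.0316), but its rho was 0.28 (permutation p = 0.197) and did not pass. *TRIB3* passed the adjusted threshold with Pearson's r (adjusted p = 0.0468) and with edgeR (adjusted p = 0.00778), the lower end of a range that reached 0.878 without TC1088. Without TC1088, *TRIB3*, *SDF2L1* and *CREB3L1* did not pass the unadjusted threshold (permutation p = 0.0791, 0.0501 and 0.118). The lowest were *EDEM1* at -0.22, *HERPUD1* at -0.20 and *XBP1* at -0.04, which became 0.13 without TC1088 and TC538. *HSPA5* and *DDIT3* had a rho of 0.50 with each other, and 0.41 without TC1088 and TC538 (permutation p = 0.0514). The mean level of the follicular markers without *TG* had rho 0.57 with *DDIT3* (permutation p = 0.00397, adjusted p = 0.0437). Its r was 0.77 (permutation p = 0.00024), and 0.48 without TC1088 and TC538 (permutation p = 0.0201). The part of the follicular markers in these relations was not tested.

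Correlations between members over the same 25 tumors are given as a description, with no test. The median rho over all 561 pairs was 0.21, against 0.00 over all pairs of genes that passed the filter, and 0.18 without TC1088 and TC538. A rho above 0.5 was found in 94 pairs (16.8%), where 5.55% of all gene pairs had one, and a rho below -0.5 in 4 pairs (0.713%), where 5.22% did. Pairs of chaperones had a median rho of 0.46, pairs of a chaperone and a disulfide gene 0.42, pairs of ATF4 branch genes 0.30 and pairs of lectin and quality-control genes 0.02.

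The positive pairs were not spread evenly over the members. In the grid of pairs, 13 of them (*HSPA5*, *DNAJB11*, *PDIA3*, *CRELD2*, *SDF2L1*, *MANF*, *CALR*, *HYOU1*, *PDIA4*, *PDIA6*, *P4HB*, *EDEM2* and *SYVN1*) had a median rho of 0.52 with each other. Another 8 (*HSP90B1*, *DNAJB9*, *DNAJC3*, *EDEM3*, *UGGT1*, *ERO1A*, *ERO1B* and *EIF2AK3*) had a median of 0.68 with each other, from 0.50 to 0.87. Between the sets the median was -0.08, from -0.51 to 0.51. Both sets were picked after the values were seen, so these medians describe the choice. Without TC1088 and TC538 they were 0.44, 0.66 and -0.06. The first set joins BiP and its partners with calreticulin and the isomerases, and its closest pairs after those with *HSPA5* were *CRELD2* with *SDF2L1* at 0.83 and *CALR* with *MANF* at 0.82. The second joins the sensor PERK with GRP94, J-domain co-chaperones and the ER oxidases, and its closest pair was *DNAJC3*, an inhibitor of PERK, with *EIF2AK3* at 0.87. *EDEM3* with *UGGT1* at 0.80 came next. All 8 genes of the second set had a negative rho with the size factor of the library, from -0.49 to -0.15, and in the first set the values ran from -0.16 to 0.25. With the number of genes detected, rho ran from -0.38 to 0.02 in the second set and from -0.38 to -0.01 in the first. With the share of the 10 most counted genes it ran from 0.24 to 0.61 and from -0.18 to 0.39. The part of these library measures in the division was not tested.

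A rho above 0 was found in 71.8% of the pairs of members, where 49.8% of all gene pairs had one. *EDEM1* and *ATF6* had the lowest rho of any pair, -0.69, and -0.64 without TC1088 and TC538. *EIF2AK3* with *SEC61B* and *DNAJC3* with *PPP1R15A* were both at -0.54, and *PDIA4* with *EIF2AK3* was at -0.51. *XBP1* was closest to *HERPUD1* at 0.53, but without TC1088 and TC538 it was closest to *SDF2L1* at 0.77 and *CRELD2* at 0.71, with *HERPUD1* at 0.55. *HERPUD1* and *XBP1* were also negatively ranked with the number of genes detected in a library (-0.59 for *HERPUD1* and -0.55 for *XBP1*), whose part in their relation was not tested.

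**Figure D5:**
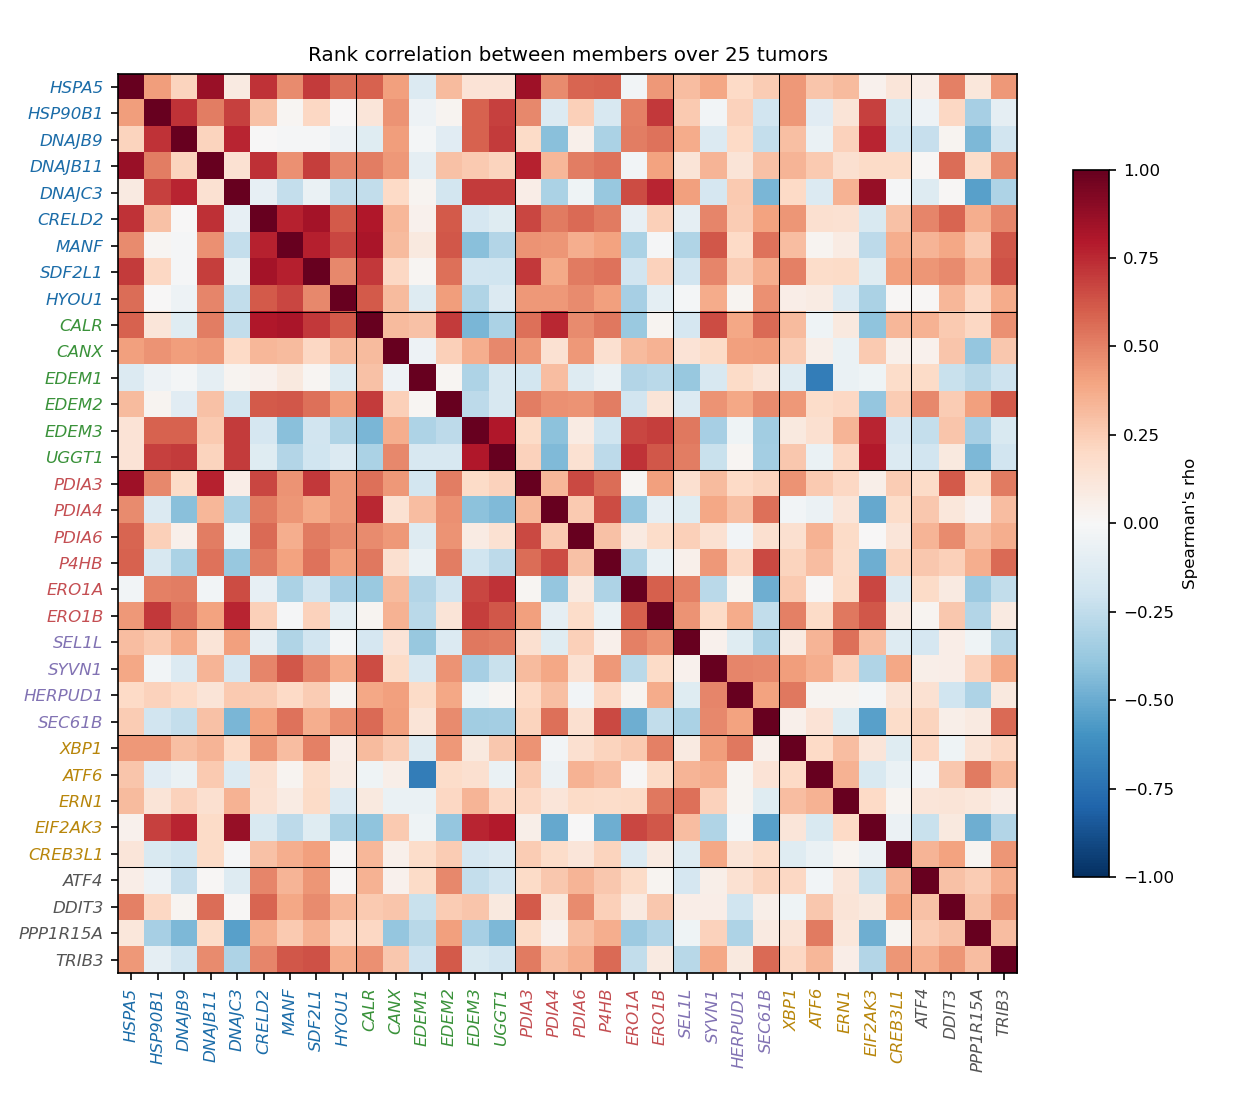
Spearman's rho between every 2 ER genes over the 25 tumors of the larger branch, with genes ordered and colored by role and lines between the roles. Red is positive and blue negative. *DNAJC3*, *DNAJB9*, *HSP90B1*, *EDEM3*, *UGGT1*, *ERO1A*, *ERO1B* and *EIF2AK3* are red with each other across role boundaries, and *EDEM1* with *ATF6* is the darkest blue cell at -0.69.

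The other genes of the secretory route were counted in the same way. Of 56 further genes of ER translocation, glycosylation, degradation and vesicle export, 50 had a row and 49 were tested. With *TG*, 8 were positively and 0 negatively correlated at an unadjusted p under 0.05, where 4.2% and 4.26% of all genes were, and the median rho was 0.07. With *HSPA5* the counts were 5 and 0, against 3.72% and 3.3% of all genes, with a median of 0.12. With *DDIT3* they were 3 and 1, against 3.8% and 3.21%, with a median of 0.10. Whether this list differed from the folding and stress genes was not tested. *SEC11C*, a catalytic subunit of the signal peptidase, had the highest rho of that list with all 3 references (0.60, 0.57 and 0.54), and *ARFGAP3*, a regulator of Golgi coat proteins, had 0.53, 0.51 and 0.40. These genes were named after their values were seen. Of 29 further genes of the ATF4 pathway 27 were tested. With *TG*, 0 passed the unadjusted threshold in either direction, against 4.2% and 4.26% of all genes, so 0 of 27 is near these shares. With *HSPA5* 2 were positive (*VLDLR* at 0.66 and *CEBPB* at 0.57), against 3.72% of all genes. With *HSPA5* 1 was negative (*EIF2AK2*, a cytosolic kinase of the same substrate as PERK, at -0.42), against 3.3% of all genes. With *DDIT3* 3 were positive (*MTHFD2* at 0.61, *CEBPG* at 0.50 and *CEBPB* at 0.45) and 0 negative, against 3.8% and 3.21%. *ASNS* (asparagine synthetase), a standard *ATF4* target, had rho -0.39 with *DDIT3* and -0.30 with *HSPA5*. All of these were likewise named after their values were seen, and 0 genes of either list passed the adjusted threshold.

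The 8 immediate early genes tested respond to tissue handling. Of these and of 5 cytosolic heat shock genes, 0 passed the unadjusted threshold with *TG*, *HSPA5* or *DDIT3*. The median rho of either list lay between -0.05 and 0.22. In each direction 3.21% to 4.26% of all genes passed, so 0 of so few genes is near that share. With *HSPA5*, 8 of 8 immediate early genes and 4 of 5 heat shock genes had a rho above 0, where 49.1% of all genes did. The mean levels of these lists had rho 0.32 (permutation p = 0.116) and 0.34 (permutation p = 0.0925) with *HSPA5*. The part of tissue handling was not tested. C cell, macrophage and skeletal muscle markers likewise had 0 genes past the unadjusted threshold for these references on the larger branch. Of the 6 plasma cell markers 1 was negative with *TG* and 1 with *HSPA5*, against 4.26% and 3.3% of all genes.

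Outside the list, the gene closest to *TG* was *SLA* (rho = 0.91), which lies within *TG*, so that their reads may not be told apart without strand. *PIR* and *HSD17B12* followed at 0.79, and *NQO1*, an oxidative stress enzyme, and *UBN1* at 0.75. The most negative were *PPIE* at -0.72, *NOVA1* at -0.70 and *MGAT5*, *NHEJ1* and *MFSD4A* at -0.69. With *HSPA5* the closest genes outside the list were *SLC26A10* at 0.78, *TGM2* (transglutaminase 2) at 0.77, *ELL3* at 0.74, *TOR1B*, an ATPase of the ER lumen, at 0.73 and *IFT20* at 0.72. *ELL3* is the immediate neighbor of *PDIA3* in the annotation used for gene order. The most negative were *DTNA* at -0.72, *NFYC*, a subunit of the NF-Y factor that binds promoters of ER chaperone genes, at -0.70, *USP46* at -0.68, *CFAP69* at -0.67 and *ANKS1B* at -0.66. The adjusted p of these 20 genes ran from 0.0935 to 0.345 with 100000 resamples, and with 10000000 resamples *SLA* (adjusted p = 0.00187) and *PIR* and *HSD17B12* (both 0.038) passed for *TG*.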

How the data were processed

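Total RNA of 30 canine thyroid tumors was depleted of ribosomal RNA, sequenced from both ends, mapped to CanFam3.1 and counted per Ensembl gene with STAR by the authors, who deposited raw counts per gene. The strand used in counting is not given in the sources used here, so overlapping genes are uncertain. Of 30424 genes, 15780 had a symbol. Counts were divided by median-of-ratios size factors (0.279 to 1.624, from 15611 genes) and used as log2(normalized count + 1). The tumors were clustered by Ward's method on 750 genes with mean level above 2 and variance above 6. Spearman's rho of 18710 genes with *TG*, *HSPA5* and *DDIT3* was tested by permutation (100000 resamples, two-sided) with Benjamini-Hochberg adjustment over all genes, in Python 3.11.15 with scipy 1.17.1, after a test on simulated data. edgeR 4.0.16 in R 4.3.3 gave TMM scaling and a quasi-likelihood test with the reference level as covariate. The members and lists, which also cover immediate early, heat shock, follicular, C cell, plasma cell, fibroblast, macrophage and skeletal muscle genes, were chosen with earlier results of these data known. Named in full were *HSPA5*, *DDIT3*, *XBP1*, *ATF4* and *TG*, the 3 members at each end by SD and by rho with each reference, and the 5 genes at each end outside the list for *TG* and *HSPA5*. Gene order was read from RefSeq's UU_Cfam_GSD_1.0 annotation. Low depth adds counting error to single values, and whether depth also acted on the correlations was not tested. The permutation p-values compare each correlation with those found when the tumors are shuffled. The labels give no batch, so no within-batch values could be given.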

Additional observations from a re-analysis of the deposited data

How the results depend on the processing

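No member past the unadjusted threshold changed direction under any alternative run. Among the others, rho near 0 changed sign for up to 2 members with *TG*, up to 4 with *HSPA5* and up to 7 with *DDIT3* (without TC1088) under a single alternative. For single members past the unadjusted threshold, 327 values under alternatives passed it too and 36 did not. Some of the 327 could not have differed. A pseudocount of 8 keeps all ranks, and the count filters leave a member's own rho and unadjusted p as they were. The 10000000 resamples also kept rho the same. The tally therefore overstates how far the values were put to the test. *HSPA5* with *TG* kept its side in all, with rho from 0.56 (30 tumors, ranks centered within branches) to 0.71, and from 0.63 to 0.71 when each tumor was left out in turn. The members' median SD was alike with TMM scaling. The count of members past the adjusted threshold, 0 for each reference, moved as follows. With edgeR's quasi-likelihood test it was 5 for *TG*, 5 for *HSPA5* and 7 for *DDIT3*, of 784, 328 and 1108 genes in all (4.19%, 1.75% and 5.92%). With Pearson's r it was 4 for *HSPA5* and 3 for *DDIT3*, of 13 and 61 genes in all (0.0695% and 0.326%). For *HSPA5* it was 2 with TMM-scaled counts, 2 without TC538 and 1 over 30 tumors, each of 4 genes in all (0.0214%). With 10000000 resamples it was 2 of 2 genes in all (0.0107%). The run with 10000000 resamples was added after the data were seen. With 100000 resamples no gene can pass the adjustment unless several share the smallest p. The count of members with a positive rho at an unadjusted p under 0.05 was 20 (Pearson's r, against 6.54% of all genes) and 16 (edgeR, 6.22%) for *TG*, against 10 (4.2%). For *HSPA5* it was 10 without TC1088 (2.66% of all genes), against 16 (3.72%). For *DDIT3* it was 15 with Pearson's r (10.9% of all genes) and 15 with edgeR (7.46%), against 8 (3.8%). It was 5 over 30 tumors (4.47%), 5 without TC1088 (3.06%) and 3 without TC1088 and TC538 (3.84%). The run without both tumors was also added later. The cause of these moves was not tested. A pseudocount of 8 keeps all ranks, so it could not move the counts by rho. Other count filters could not move the unadjusted counts of members, since every member passed each filter. The adjusted counts could have moved with those filters but stayed at 0. Low counts in TC1088 (3 of *CREB3L1*, 7 of *TRIB3*) limit those values. No paired analysis was possible because the labels give 1 group.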
